A study of Mus musculus with 35 samples.

Results

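Keratins are the intermediate filament proteins of epithelial cells, and they form pairs of an acidic type I chain and a basic type II chain. The pair that a cell makes marks its epithelium: Krt5 with Krt14 the basal layer of stratified epithelia, Krt12 the corneal epithelium, Krt4 with Krt13 the conjunctiva and other mucosae, and Krt8 with Krt18 simple epithelia. The neural retina is not a surface epithelium, and these genes are known from the tissues in front of it, from skin and from the linings of other organs. Described here are 55 genes of 25655: the 49 genes named Krt and a number alone, and 6 genes of surface epithelia given by name, Psca, Lypd2, Prss22, Prss27, Csta1 and Muc13. The genes were chosen by name, with their fold changes in these comparisons already known, so the calls among them describe the choice and were not tested again.

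Messenger RNA was sequenced from wild-type mouse retina in 35 samples of 7 groups. Non-diabetic retina (ND) is represented by 6 samples, and diabetic retina by 5 samples after 6 weeks (D6), 5 after 8 weeks with PBS (D8) and 5 after 10 weeks with PBS (D10). D8 depleted (4 samples) had 8 weeks of diabetes with DTx for 2 weeks, and D10 repopulated (5 samples) had 10 weeks with 2 weeks of DTx and 2 of recovery. ND repopulated (5 samples) had the same DTx and recovery without diabetes. DTx is the labels' name for what was given to remove the microglia, the immune cells of the retina, whereas the series text names PLX-5622 in the chow. Both leave the age of the mice and how diabetes was brought about unstated. The D8 and D10 samples carry sample numbers from another sequence of numbers than those of the 5 other groups. What that numbering stands for is not known. A difference that goes with that numbering or with PBS cannot be told apart from one between these groups. Whether samples of a group are from separate animals is not labelled, and the p-values may thus measure technical spread.

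The authors deposited 8 comparisons of 2 groups. Per gene they hold the larger group mean, a log2 fold change, and p-values before and after control of the false discovery rate (FDR). A gene is called here where the authors' FDR p-value is under 0.05, and its level is the largest group mean over the 8 tables, in the authors' unit, which is not stated. The mean of a group was read from the tables in which it is the larger, and "at most" marks a group for which the tables give only an upper bound. Values per sample were not used, so whether the samples of 2 groups overlap was not analysed, and depth per sample is unknown. A standard error (SE) was taken from each log2 fold change and its p-value. Its median over the keratins and named genes lay between 0.54 and 0.74 in the 8 comparisons, against 0.14 to 0.17 over all genes. In bulk retina, fewer cells of a type and less RNA per cell cannot be told apart.

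Of the 55 genes, 49 had a level above 0 in at least 1 of the authors' deposited tables, 29 reached 0.1 and 17 reached 1. The share above 0 was 89.1%, against 74.1% of all genes, and the share reaching 1 was 30.9%, against 48.4%. The 6 genes listed at 0 in every table were the hair keratins Krt27, Krt34, Krt35, Krt39, Krt72 and Krt73. A further 20 genes lay above 0 and under 0.1. The lowest level among the genes that reached 1 was 1.17, and the highest below it was 0.953. The authors gave an FDR p-value in all 8 tables to 28 of the genes, in some tables to 14 and in none to 13. Calls were made for 24 of the 42 genes with an FDR p-value in at least 1 of the 8 comparisons, 18 of them keratins, against 40.4% of all genes with one. A further 25 genes with a level above 0 were called in none.

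All 49 keratins lie in the 2 keratin clusters of the mouse genome (GRCm39 in the deposited tables). The type I cluster, chr11:99123587-100160697, held 25 of them, all on the minus strand, of which 21 were above 0 and 9 were called in at least 1 table. The type II cluster, chr15:101245325-101940462, held 24, of which 20 are on the minus strand, 22 were above 0 and 9 were called.

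The sequence before the start site is shown for 4 genes whose levels differed between the groups in different ways: Krt12 and Krt5, Krt13 and Prss27. Each line gives the 150 bases before the RefSeq start (build GRCm38.p6, gene strand, 5′ to 3′). Capitals mark TATAAA, the core of the TATA box, or ATAAA between 40 and 16 bases before the start, and CCACCC or its complement GGGTGG, the letters that Krüppel-like factors read.
Krt12: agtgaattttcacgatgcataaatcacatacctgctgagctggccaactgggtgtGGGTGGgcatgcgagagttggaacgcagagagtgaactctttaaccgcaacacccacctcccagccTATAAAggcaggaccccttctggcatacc
Krt5: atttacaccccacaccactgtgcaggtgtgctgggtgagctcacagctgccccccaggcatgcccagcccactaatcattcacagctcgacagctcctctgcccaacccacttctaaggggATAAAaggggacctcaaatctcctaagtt
Krt13: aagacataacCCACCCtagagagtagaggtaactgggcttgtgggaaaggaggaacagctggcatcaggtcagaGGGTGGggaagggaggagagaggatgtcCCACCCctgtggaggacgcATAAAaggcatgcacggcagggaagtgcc
Prss27: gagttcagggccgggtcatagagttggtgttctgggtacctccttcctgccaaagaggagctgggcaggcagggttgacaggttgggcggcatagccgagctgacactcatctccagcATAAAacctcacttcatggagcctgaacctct

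These lines lie at chr11:99422260-99422409 (Krt12), chr15:101712906-101713055 (Krt5), chr11:100121567-100121716 (Krt13, the first of 2 RefSeq starts) and chr17:24038093-24038242 (Prss27). All but Prss27 are on the minus strand. In Krt12 the TATAAA begins at position -29 from the start, and the ATAAA of Krt5 and of the Krt13 start shown begins there too. The other RefSeq start of Krt13 has no ATAAA between 40 and 16 bases before it and no CCACCC in its 150 bases. RefSeq promoters of 250 bases before the start and 50 after it matched 38 of the 55 genes and gave 40 promoters. Within the 250 bases, and on either strand, TATAAA stood in 16 of the 40, against 12.4% of all 32851 promoters in the table. ATAAA, which TATAAA contains, stood between 40 and 16 bases before the start in 21 of the 40 (52.5%), against 6.32% of all. CCACCC stood in 32.5% against 28.1%, and TGANTCA, the letters of the AP-1 site, in 10.0% against 6.75%. AACCNGTT, the letters that Grainyhead-like factors read, was in 0.0% of the keratin and surface gene promoters and in 1.79% of all. These shares describe letters in a window and not sites in use.

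Counted by comparison, the calls among the 55 genes were as follows, each beside the share of all genes called higher in the same deposited table. For D6 against ND, 7 of the 40 genes with an FDR p-value were higher and 0 lower, against 14.1% of all genes. For D8 against ND 0 of 38 were called, against 2.33% of all genes higher and 0.583% lower. Of the 38, 6 had an unadjusted p under 0.05 in the authors' test, the only one available. Nearest to the threshold there were Krt18 (log2 0.42, SE 0.14, FDR p = 0.072) and Prss22 (1.67, SE 0.55, FDR p = 0.078) in the authors' deposited table. For D10 against ND 12 of 38 were higher, against 5.59% of all genes, and 0 lower. For D8 depleted against ND 22 of 42 were higher, against 15.5%, and 0 lower.

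Of the 38 genes with an FDR p-value in D10 repopulated against ND, 7 were higher and 0 lower, against 7.49% of all genes higher. In ND repopulated against ND 0 of 28 were called in either direction, against 0.0844% of all genes called higher. Of the 28, 2 had an unadjusted p under 0.05 in the authors' test. In D8 depleted against D8, 16 of 36 were higher and 0 lower, against 5.85% of all genes higher. In D10 repopulated against D10, 0 of 36 were higher, against 0.178% of all genes, and 4 were lower, against 0.267%. A gene near 0 in one group may get an FDR p-value only through the other, where it is high, so these counts say nothing about the genes without one. The 6 comparisons with ND share its 6 samples, and their counts are not independent of each other.

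The median log2 fold change of the genes with an FDR p-value was 0.95 in D6, 0.77 in D8 and 1.32 in D10 against ND, and 1.99 in D8 depleted and 1.00 in D10 repopulated against ND, per the authors' deposited tables. It was -0.05 in ND repopulated against ND. Over all genes the medians of the 8 comparisons lay within 0.04 of 0. Of the keratins alone, 3 of 34 were higher in D6, a smaller share than the 14.1% of all genes, and 0 of 32 in D8 (2.33% of all genes), both against ND. In D10 7 of 32 were higher (5.59% of all genes), in D8 depleted 16 of 36 (15.5%) and in D10 repopulated 6 of 32 (7.49%), all against ND.

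The basal keratins Krt5, Krt14 and Krt15 and the corneal keratin Krt12 had their highest means in D8 depleted and D10 repopulated. The mean of Krt12 was at most 1.07 in ND and in ND repopulated. It was 2.59 in D6, 2.28 in D8, 12.9 in D8 depleted, 5.41 in D10 and 17.7 in D10 repopulated, per the authors' deposited tables. Both groups that had received DTx in diabetes thus lay above every other group for this gene, with D10 next. In the authors' deposited tables Krt12 rose 11.6-fold in D8 depleted over ND (log2 3.53, SE 0.82, FDR p = 0.00022). Its rise in D10 repopulated over ND was 4.0 in log2 (SE 0.77, FDR p = 1.1e-05) in the authors' deposited table.

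**Figure D1:**
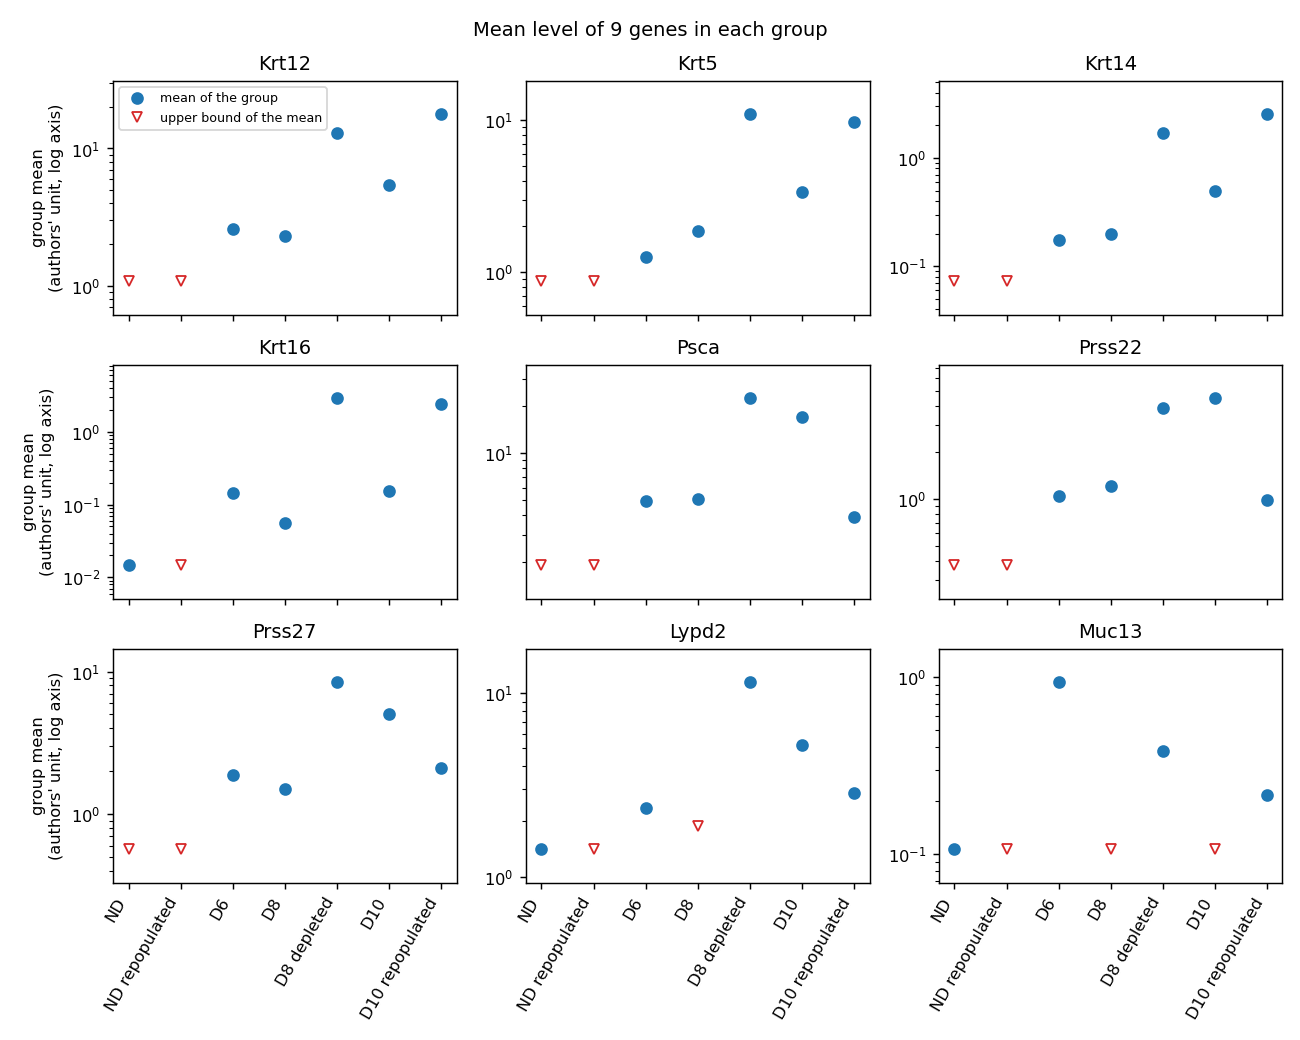
Group means of 9 genes on a log axis, in the authors' unit, for the 7 groups: filled circles are means read from the authors' deposited tables, and open triangles are upper bounds where a table gives only the larger of 2 means. No error is drawn, since no values per sample were used. Krt12, Krt5, Krt14 and Krt16 stand highest in D8 depleted and D10 repopulated, Psca, Prss22, Prss27 and Lypd2 in D8 depleted and D10, and Muc13 in D6.

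Krt5, the type II partner of Krt14 in basal cells, had a mean of at most 0.87 in ND and ND repopulated. Its mean was 1.25 in D6, 1.86 in D8, 10.9 in D8 depleted, 3.38 in D10 and 9.70 in D10 repopulated, per the authors' deposited tables. Krt14 had a mean of 1.71 in D8 depleted, 2.52 in D10 repopulated, 0.490 in D10 and at most 0.0725 in ND, per the authors' deposited tables. Krt15, a type I keratin of basal cells, was at 12.7 in D8 depleted and 5.16 in D10 repopulated, and between 1.34 and 1.95 in ND repopulated, D6, D8 and D10. For each of the 3, every other group lay below D8 depleted and D10 repopulated. All 3 basal keratins were called higher in the authors' deposited tables of D8 depleted against ND, of D10 repopulated against ND and of D8 depleted against D8. None was called in D6, D8 or D10 against ND. For D10 against ND, Krt5 had a log2 of 2.28 (SE 0.80, FDR p = 0.060) and Krt14 one of 3.02 (SE 1.06, FDR p = 0.058) in the authors' deposited table. Krt12, by contrast, was called there, with a log2 of 2.32 (SE 0.77, FDR p = 0.039) in the authors' deposited table, so these genes lay just on either side of the threshold.

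Krt16 and Krt17, type I keratins that skin makes after wounding, held the largest called fold changes among these genes. The mean of Krt16 was 0.0146 in ND, 0.143 in D6, 0.0553 in D8, 0.156 in D10, 2.86 in D8 depleted and 2.43 in D10 repopulated, per the authors' deposited tables. Krt16 rose by a log2 of 7.31 (SE 1.32, FDR p = 1.4e-06) in D8 depleted over ND and of 7.08 (SE 1.25, FDR p = 1.2e-06) in D10 repopulated over ND, in the authors' deposited tables. These folds stand on a mean near 0 in ND. Against D8, whose mean was itself low, the rise in D8 depleted was 5.59 (SE 0.82, FDR p = 8.0e-09) in the authors' deposited table. Krt17 had a mean of 0.510 in D8 depleted, against 0.128 in D10 repopulated, 0.0899 in D10 and at most 0.029 in D8. The authors' deposited table gave Krt17 a log2 of 6.30 (SE 1.36, FDR p = 0.00037) for D8 depleted against D8, and it was called in D8 depleted against ND too. For D10 repopulated against ND its log2 was 2.05 (SE 0.95, FDR p = 0.15) in the authors' deposited table.

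The letters in their names keep Krt6a, Krt6b, Krt33a and Krt33b out of the 55 genes. Krt6a and Krt6b are the type II partners of Krt16 and Krt17, and their reads may be shared between the 2 similar genes. Krt6a was at 6.40 in D8 depleted and 6.12 in D10 repopulated, at 1.77 in D10 and at most 0.432 in ND, per the authors' deposited tables. Its rise over ND was 4.29 in log2 (SE 0.81, FDR p = 3.8e-06) in D8 depleted and 4.23 (SE 0.76, FDR p = 1.6e-06) in D10 repopulated, per the authors' deposited tables. Krt6b was called in the same 2 comparisons, with log2 values of 3.10 and 2.39. Krt33a and Krt33b, hair keratins, were listed at 0.

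Of the 4 mucosal keratins Krt13, Krt4 and Krt78 had their highest means in D8 depleted, and Krt76, which was highest in D6 at a mean of 0.0195, was called in none of the authors' deposited tables. Krt13, a type I keratin of conjunctiva and mouth, had a mean of 6.66 in D8 depleted, 4.59 in D10, 2.18 in D10 repopulated, 2.04 in D8, 1.51 in D6 and at most 0.953 in ND, per the authors' deposited tables. It rose in D10 over ND by 2.32 in log2 (SE 0.62, FDR p = 0.0039) and in D8 depleted over ND by 2.82 (SE 0.66, FDR p = 0.00025), per the authors' deposited tables. In D10 repopulated against ND its log2 was 1.24 (SE 0.62, FDR p = 0.19) in the authors' deposited table. Krt4, the type II partner of Krt13, rose in D8 depleted over ND by 2.78 (SE 0.75, FDR p = 0.0018 in the authors' deposited table), to a mean of 1.20, and was called in no other table. Krt78, a low-level type II keratin, was called in that table and no other, with a log2 of 1.69 (SE 0.68, FDR p = 0.048 in the authors' deposited table) and a mean of 0.131.

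**Figure D2:**
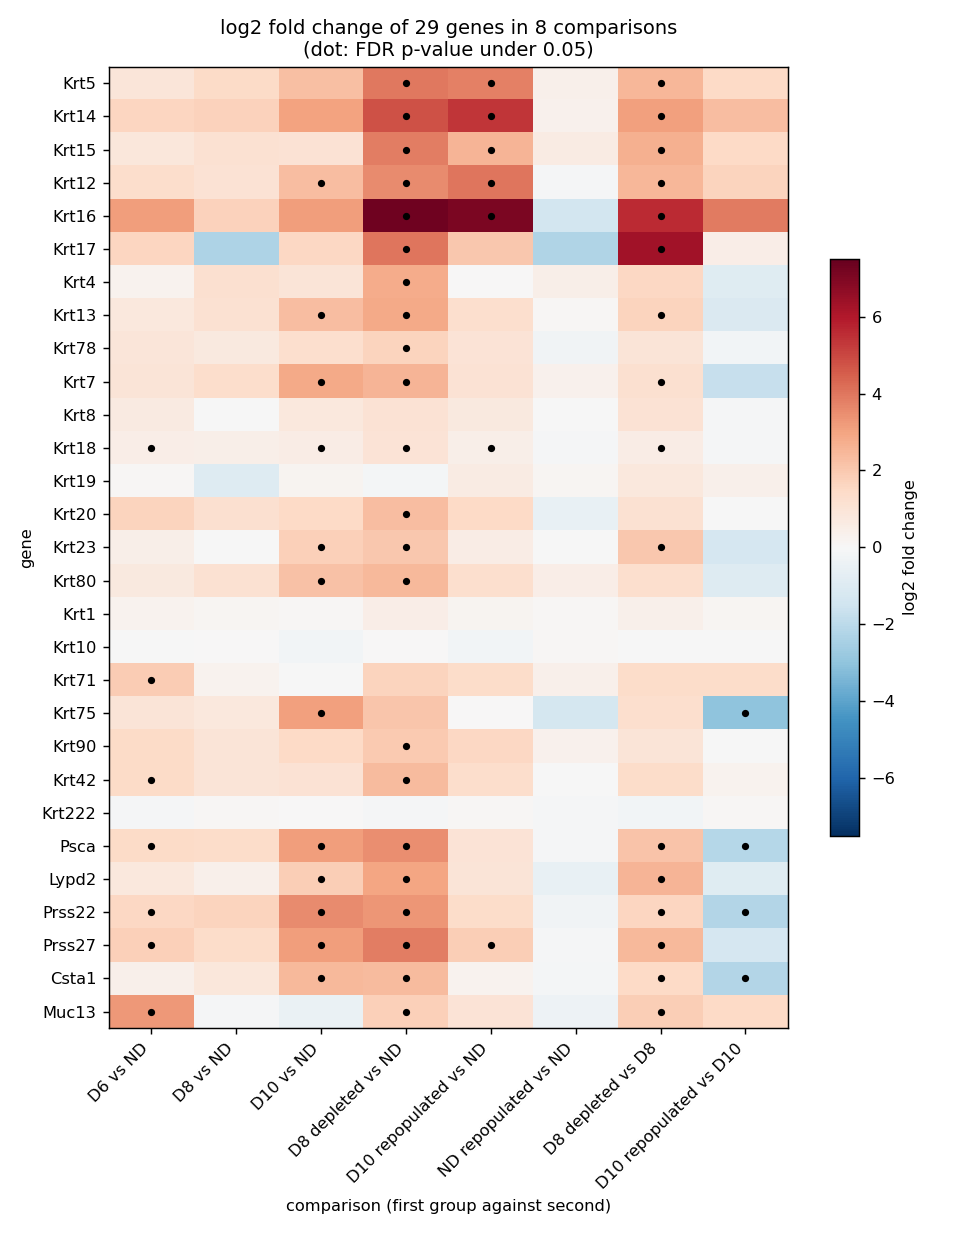
Log2 fold changes of the 29 genes that reached a level of 1 or were called at least once (rows) in the 8 comparisons of the authors' deposited tables (columns), with red for higher in the first group, blue for lower and a dot for an FDR p-value under 0.05. The column of ND repopulated against ND holds no dot, and the last column holds 4, all in blue.

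Among the keratins of simple epithelia Krt18 was called most often. Krt18, a type I keratin, had a mean of 57.0 in D8 depleted and 39.9 in D10, and of at most 27.3 in ND. It rose in 5 of the 8 deposited comparisons by small amounts, from a log2 of 0.44 (SE 0.14, FDR p = 0.020) in D10 repopulated over ND to 1.02 (SE 0.15, FDR p = 1.4e-09) in D8 depleted over ND, per the authors' deposited tables. Krt8, its type II partner, lies 23.7 kb from it on chromosome 15. Its mean was 1.36 in D8 depleted, 1.09 in D10, 1.05 in D10 repopulated, 0.960 in D6 and at most 0.617 in ND, and it was called in none of the authors' deposited tables. The log2 of Krt8 in D8 depleted against ND was 1.09 (SE 0.45, FDR p = 0.051) in the authors' deposited table, close to that of Krt18 but with an SE that is larger. Krt19, which lacks the tail domain of other keratins, was called in none either. Its mean was 0.758 in ND, 0.696 in D8 depleted and 1.17 in D10 repopulated, per the authors' deposited tables, and its log2 in D8 depleted against ND was -0.17 with a 95% interval from -1.76 to 1.41, which leaves room for large changes both ways.

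Krt7, a type II keratin of glands and conjunctiva, had a mean of 0.953 in D10, 0.806 in D8 depleted, 0.340 in D8, 0.289 in D10 repopulated, 0.259 in D6 and at most 0.165 in ND, per the authors' deposited tables. It rose over ND in D10 (log2 2.82, SE 0.57, FDR p = 3.5e-05) and in D8 depleted (log2 2.53, SE 0.61, FDR p = 0.00037), per the authors' deposited tables. Krt80 and Krt23 were called in the same 2 comparisons. Krt80 rose by 2.22 (SE 0.59) in D10 and 2.45 (SE 0.62) in D8 depleted, and Krt23 by 1.81 (SE 0.60) and 2.01 (SE 0.63). Krt20, a type I keratin of gut and bladder lining, was called in D8 depleted against ND and no other table (log2 2.32, SE 0.73, FDR p = 0.0084 in the authors' deposited table), at a mean of 0.0860.

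The keratins of the cornified skin layers were called in none of the authors' deposited tables. Krt10, a type I keratin of the upper epidermis, had a mean of 4.78 in ND and 4.98 in D8 depleted. In the authors' deposited table its log2 in D8 depleted against ND was 0.02, with a 95% interval from -0.29 to 0.32. Krt1, its type II partner, had a mean of 1.35 in D8 depleted and at most 0.966 in ND, and a log2 of 0.53 there, with an interval from 0.04 to 1.01 and an FDR p of 0.095 in the authors' deposited table. Krt222, a keratin gene that no role list holds, had a mean of 3.12 in ND and log2 values between -0.21 and 0.12 in the 8 tables.

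Of 24 genes listed here as hair and root sheath keratins, 18 were above 0. The highest level was 0.241 (Krt24), followed by 0.221 (Krt28). Of the 24, 3 were called in at least 1 table, against 40.4% of all genes with an FDR p-value. Only 11 of the 24 had one in D8 depleted against ND, the comparison where most did, so the count and the share rest on unlike sets. Krt71 was called in D6 against ND (log2 1.90, SE 0.65, FDR p = 0.020 in the authors' deposited table) at a mean of 0.108. Krt90 was called in D8 depleted against ND (log2 1.97, SE 0.77, FDR p = 0.040 in the authors' deposited table) at a mean of 0.0824. Krt75, a keratin of the hair companion layer, rose in D10 over ND (log2 3.07, SE 0.81, FDR p = 0.0039 in the authors' deposited table) to a mean of 0.196. Krt42, which none of the role lists holds, rose in D6 (log2 1.44, SE 0.54, FDR p = 0.037) and D8 depleted (log2 2.36, SE 0.54, FDR p = 0.00017) over ND in the authors' deposited tables. All 4 were called at low means, of at most 0.276.

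The 6 genes given by name are known from surface epithelia. Psca, a lipid-anchored protein of the Ly6 family found in bladder, stomach and prostate lining, had a mean of 22.4 in D8 depleted, 17.1 in D10, 5.07 in D8, 4.92 in D6, 3.88 in D10 repopulated and at most 1.91 in ND, per the authors' deposited tables. D8 depleted and D10 stood apart from the other 5 groups for this gene. Psca rose over ND in D6 (log2 1.42, SE 0.48, FDR p = 0.020), D10 (3.15, SE 0.48, FDR p = 8.0e-09) and D8 depleted (3.50, SE 0.51, FDR p = 1.8e-09) in the authors' deposited tables. Its log2 in D10 repopulated against ND was 1.00 (SE 0.49, FDR p = 0.18) in the authors' deposited table.

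Lypd2, another Ly6 family gene, had a mean of 11.5 in D8 depleted, 5.21 in D10, 2.86 in D10 repopulated, 2.37 in D6 1.41 in ND and at most 1.88 in D8, per the authors' deposited tables. It rose over ND in D8 depleted (log2 2.96, SE 0.58, FDR p = 1.1e-05) and D10 (1.87, SE 0.55, FDR p = 0.013), per the authors' deposited tables. Lypd2 lies 15.2 kb from Psca on chromosome 15. Slurp1, a secreted Ly6 protein of cornea and skin, lies between them and is named after its values were seen: it rose in D10 (log2 2.12) and D8 depleted (2.85) over ND. Them6, which overlaps Slurp1 on the other strand, had a log2 of 0.21 in D10 and 0.42 in D8 depleted, and was called in the latter. Whether the counting used strand is not given in the sources used here.

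Prss22 and Prss27 are serine proteases of surface epithelia, 40043 bases apart on chromosome 17. Prss22 had a mean of 4.45 in D10, 3.84 in D8 depleted, 1.21 in D8, 1.05 in D6, 0.987 in D10 repopulated and at most 0.372 in ND, per the authors' deposited tables. Prss27 had a mean of 8.39 in D8 depleted, 5.01 in D10, 2.12 in D10 repopulated, 1.87 in D6, 1.49 in D8 and at most 0.567 in ND, per the authors' deposited tables. Both were called higher than ND in D6, D10 and D8 depleted. Prss27 alone of the 6 named genes was called in D10 repopulated against ND as well (log2 1.87, SE 0.59, FDR p = 0.019 in the authors' deposited table).

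Csta1, a cysteine protease inhibitor of the stefin A family, had a mean of 0.806 in D10, 0.801 in D8 depleted and 0.276 in D8, and of at most 0.147 in ND and 0.177 in D10 repopulated, per the authors' deposited tables. The stefin A genes are near copies of each other, so reads may be shared among them. Muc13, a membrane mucin, followed none of these orders: its mean was 0.931 in D6, 0.383 in D8 depleted, 0.216 in D10 repopulated and at most 0.106 in the other 4 groups, per the authors' deposited tables. It rose most in D6 over ND (log2 3.25, SE 0.58, FDR p = 1.7e-06) and less in D8 depleted over ND (1.79, SE 0.63, FDR p = 0.019), per the authors' deposited tables. In D10 against ND its log2 was -0.52 (SE 0.63, FDR p = 0.79) in the authors' deposited table.

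D10 repopulated against D10 sets 10 weeks of diabetes with DTx and recovery beside 10 weeks with PBS. How far microglia were removed and returned is not shown here. The mean of Psca was 3.88 in D10 repopulated and 17.1 in D10, and the gene fell by 2.15 in log2 (SE 0.49, FDR p = 0.0065 in the authors' deposited table). Prss22 fell by 2.18 (SE 0.56, FDR p = 0.028), Csta1 fell by 2.19 (SE 0.56, FDR p = 0.028) and Krt75 fell by 3.02 (SE 0.76, FDR p = 0.025), in the authors' deposited table. No other keratin or named gene was called in this comparison. Krt7 had a log2 of -1.72 (SE 0.57, FDR p = 0.19), Prss27 of -1.26 (SE 0.57, FDR p = 0.56) and Krt13 of -1.08 (SE 0.59, FDR p = 0.74) in the authors' deposited table.

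Krt16 had the largest log2 upward in that comparison, 3.93 (SE 1.16), with an FDR p of 0.088 in the authors' deposited table. Krt14 followed with 2.33 (SE 1.01, FDR p = 0.52), Krt12 with 1.68 (SE 0.84, FDR p = 0.66), Krt5 with 1.49 (SE 0.87, FDR p = 0.80) and Krt15 with 1.48 (SE 0.76, FDR p = 0.70), per the authors' deposited table. The upward values did not pass the test, so basal and corneal keratins were not shown to be higher in D10 repopulated than in D10. Whether they moved apart from Psca and Prss22 was not tested. Among the 29 genes of a level of at least 0.1, 13 had a log2 above 0 and 16 below it.

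**Figure D3:**
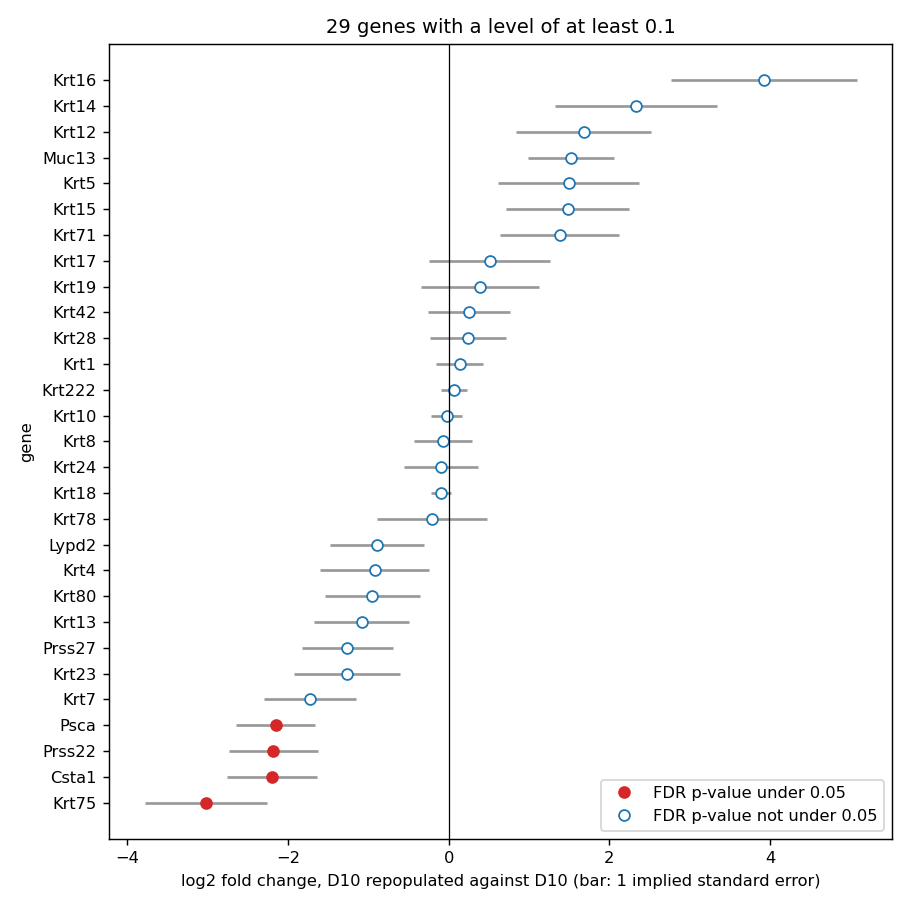
Log2 fold change of D10 repopulated against D10 for the 29 genes with a level of at least 0.1, with bars of 1 SE taken from the p-value in the authors' deposited table. Filled circles, Psca, Prss22, Csta1 and Krt75, had an FDR p-value under 0.05, and Krt16, at the top, did not.

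D8 depleted against D8 sets diabetes with DTx beside diabetes of the same length with PBS. Whether microglia were absent in D8 depleted is not shown here. A difference that goes with DTx cannot be told apart from one with PBS or the sample numbering in this comparison. Of the 16 genes called higher there, all 6 named genes and 10 keratins, Krt16 and Krt17 had the largest log2 values, 5.59 and 6.30. The 6 named genes lay between a log2 of 1.5 (Csta1, SE 0.43, FDR p = 0.0096) and 2.57 (Lypd2, SE 0.47, FDR p = 1.0e-05) in the authors' deposited table. Krt12 rose by 2.47 (SE 0.60, FDR p = 0.0019), Krt15 by 2.66 (SE 0.60, FDR p = 0.00077) and Krt14 by 3.06 (SE 0.78, FDR p = 0.0034) in the authors' deposited table. A non-diabetic group at the end of DTx was not analysed here. In ND repopulated, which had 2 weeks of recovery after DTx, Krt12 had a log2 of -0.11 (95% interval -1.63 to 1.40) against ND, and Psca one of -0.09, in the authors' deposited table.

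Beside these genes, 74 others of surface epithelia were read from 5 lists by role, chosen with results of these data known. In D8 depleted against ND 37 of 69 with an FDR p-value were higher and 1 lower (15.5% of all genes higher), in D10 repopulated against ND 21 of 66 were higher (7.49%), and in D10 against ND 12 of 65 were higher and 1 lower (5.59%). In D6 against ND 13 of 68 were higher and 1 lower (14.1% of all genes higher), and in D8 against ND 4 of 66 were higher (2.33%). In D8 depleted against D8 23 of 64 were higher and 0 lower (5.85% of all genes higher), with a median log2 of 1.12. The median log2 of these surface genes was 1.80 in D8 depleted, 1.16 in D10 repopulated and 0.54 in D10 against ND, per the authors' deposited tables. In ND repopulated against ND 0 of 53 were called, beside 0.0844% of all genes higher. In D10 repopulated against D10 0 of 64 were called, beside 0.178% of all genes higher and 0.267% lower. Both counts of 0 lie near these shares.

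**Figure D4:**
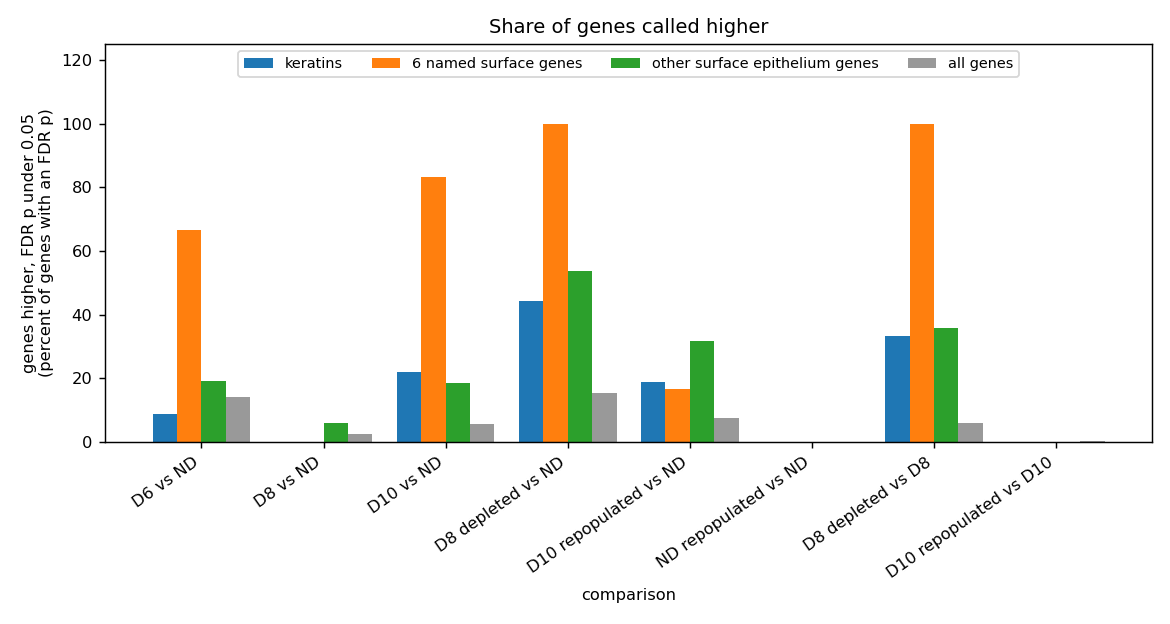
Percent of genes with an FDR p-value that were called higher in each of the 8 comparisons of the authors' deposited tables: the keratins, the 6 named surface genes, the other surface epithelium genes and all genes. The bars of the keratins are tallest in D8 depleted against ND (16 of 36), and all bars stand at or near 0 in ND repopulated against ND and in D10 repopulated against D10.

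Of the genes of epithelial junctions and adhesion, 9 of 16 were higher and 1 lower in D8 depleted against ND (15.5% of all genes higher). In D10 repopulated against ND 8 of 16 were higher (7.49%). In D10 against ND 0 of 16 were called (5.59% of all genes higher and 1.41% lower). Dsp, which ties keratin filaments to desmosomes, had a log2 of 3.61 in D8 depleted and 4.25 in D10 repopulated, both called, and of 2.39 in D10, per the authors' deposited tables. Dsg3, a desmosomal cadherin of stratified epithelia, had 4.21 and 4.85, both called, and 2.28 in D10. The means of Dsp and Dsg3 in D8 depleted were low, at 0.172 and 0.136. Pkp1, a desmosomal plaque protein, was the gene called lower in D8 depleted against ND, by a log2 of 0.51. Of the 16 genes, 13 had a log2 above 0 there. Cdh1 was not among them: its mean was 0.615 in ND and at most 0.192 in D8 depleted, and it was not called.

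Of the mucosal genes, 9 of 15 were higher in D8 depleted (15.5% of all genes), 7 of 13 in D10 repopulated (7.49%) and 6 of 13 in D10 (5.59%), all against ND. Muc4, a membrane mucin of cornea and conjunctiva, had log2 values of 3.64, 2.28 and 3.25 in these comparisons, all called in the authors' deposited tables. Upk1b, a tetraspanin of bladder and cornea, had 3.05, 1.60 and 2.46, all called too. Aldh3a1, the abundant crystallin-like enzyme of the corneal epithelium, was called in none of the 8 tables, and had a log2 of -0.50 in D8 depleted and 0.37 in D10 repopulated against ND. Of the epithelial transcription factors, 6 of 10 were higher in D8 depleted and 2 of 10 in D10 repopulated, both against ND. Of the cornified envelope and keratinocyte genes these counts were 6 of 16 and 2 of 15, and of the surface proteases and inhibitors 7 of 12 and 2 of 12. The shares of all genes higher were 15.5% and 7.49%. Trp63, the transcription factor of basal epithelial cells, rose by 1.99 in D8 depleted over ND and had a log2 of 1.17 in D10 repopulated, where it was not called. Prss8, a membrane-anchored protease, rose in D10 (3.02) and D8 depleted (2.33) over ND, and had a log2 of -2.06 in D10 repopulated against D10, not called.

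Markers of other tissues near the retina also differed between the groups. All 10 lens genes fell in D8 depleted against ND, with a median log2 of -8.78, beside 13.0% of all genes lower, and 8 of 10 fell in D8 against ND, beside 0.583%, while none was called in D10, D10 repopulated or ND repopulated against ND. In D8 depleted against D8, where keratins were higher, 5 of 9 lens genes were lower, beside 4.9% of all genes. The sum of the larger group means of the lens genes was 3663 in D8 depleted against ND and 97.6 in D8 depleted against D8. Of the genes of blood cells, 4 of 5 were higher in D8 depleted against D8 (5.85% of all genes) and 4 of 6 in D10 repopulated against D10 (0.178%). Against ND, 4 of 6 blood genes were lower in D8, with a median log2 of -3.53, and 5 of 6 in D10 (0.583% and 1.41% of all genes lower). The summed larger means of the blood genes lay between 38.9 in D8 depleted against D8 and 129 in D10 repopulated against D10. Of 8 genes of corneal stroma and sclera 1 was higher in D6 and in D8 depleted against ND (14.1% and 15.5% of all genes). In D8 depleted against D8 1 of the 8 was higher (5.85%). In D6, D8, D10 and D8 depleted against ND 1 was lower, beside 9.31%, 0.583%, 1.41% and 13.0% of all genes. In D10 repopulated against ND 1 was lower too. Kera, the keratan sulfate proteoglycan of the corneal stroma, had a highest level of 0.0165. Of the genes of pigment epithelium, iris and ciliary body at most 2 of 10 were called higher in any table. These were 2 in D8 depleted against ND (15.5% of all genes) and 2 in D8 depleted against D8 (5.85%). In D10 repopulated against D10 2 were higher and 1 lower (0.178% and 0.267%). Of mesothelium and meninges genes with an FDR p-value, 1 of 4 was higher in D8 depleted against ND (15.5% of all genes) and 1 of 2 against D8 (5.85%). Of skeletal muscle genes with one, 1 of 4 was higher in D8 depleted against D8 (5.85% of all genes) and none elsewhere. The 8 genes of photoreceptors and other retinal cells were present in every comparison, with summed larger means between 12181 and 14061. Of these 8, 3 were lower and 1 higher in D8 depleted against ND (median log2 -0.38), beside 13.0% of all genes lower and 15.5% higher. In D8 depleted against D8 2 were lower (median -0.22), beside 4.9% of all genes. In D6 against ND 3 were lower and 1 higher (median -0.11), beside 9.31% of all genes lower and 14.1% higher. The part of these markers in the keratin values was not tested.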

How the data were processed

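Stranded poly(A) messenger RNA libraries were sequenced as paired 100 bp reads, per the labels' protocols. The submitters' processing notes name bcl2fastq and the genome GRCm39. Which aligner, counter, scaling and test were used is not given in the sources used here. In all, 8 tables that the authors deposited hold 25655 genes with log2 fold changes, p-values and FDR p-values, which equal Benjamini-Hochberg values within 0.000489. They also deposited the larger group mean, a signal level whose unit is not stated. The table of D10 repopulated against D10 was deposited the other way, and its sign was turned.

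Genes were called at an FDR p-value under 0.05. The SE is each log2 value over the normal quantile that its p-value corresponds to, and intervals are 95% intervals from it. A group mean was read where 2 tables that share only that group repeat a value, or from the sign of a log2 of at least 0.5, and otherwise given as an upper bound. Where both ways gave a mean, 12176 of 12176 pairs of gene and group matched within 0.01 percent. Over all genes, 187 means read in these ways lay above an upper bound from another comparison. For those only the bound was kept. No test was fitted to the genes described. Steps were tested on simulated data and run in Python 3.11.15 with pandas 2.3.3 and scipy 1.17.1.

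Members and lists were chosen with earlier results of these data known. The rule for naming takes every gene that reached a level of 1 or was called in 1 table, and the 6 named genes. From each other list it takes the 4 highest and up to 6 called, of which only some are named. Depth per sample is unknown. As alternatives, the FDR threshold was set to 0.01 and 0.10, a minimum absolute log2 of 1 was required, and the counts were taken with a level filter leaving out the lowest 40 percent and with predicted names left out.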

Additional observations from a re-analysis of the deposited data

How the results depend on the processing

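Of 66 alternative counts, 57 stayed within 1.5 times the count reported. The 8 medians of log2 fold changes were taken again over genes with a level of at least 0.1 and kept their sign; that of D10 repopulated against D10 went from -0.02 to -0.07, both near 0. At an FDR p-value under 0.01, the keratins and named genes called fell from 7 to 2 in D6 against ND and from 4 to 1 in D10 repopulated against D10, and the other surface epithelium genes from 14 to 7 in D6 against ND, from 4 to 1 in D8 against ND and from 23 to 12 in D8 depleted against D8. At 0.10, 2 keratins or named genes were called in D8 against ND in place of 0, and 1 other surface gene in D10 repopulated against D10 in place of 0. The 49 genes above 0 became 29 at a level of at least 0.1 and 17 at a level of at least 1. No paired analysis was possible because the labels share no replicate numbers and no values per sample were used, and samples were not left out in turn for the same reason. Depth is unknown, so what it limits cannot be given. The median SE of the keratins and named genes exceeded the median SE of all genes in every comparison.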
